A study of Mus musculus with 6 samples.

Results

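The genes described here encode PDZ-LIM proteins and sorbin-family proteins, adaptors that sit on actin stress fibres. The group held 9 of the 18193 mouse genes tested: Pdlim1, Pdlim2, Pdlim3, Pdlim4, Pdlim5, Pdlim7 and Ldb3 of the PDZ-LIM family, and Sorbs2 and Sorbs3 of the sorbin family. They were chosen by gene symbol, with earlier results of these data known, and were read by 24 probe sets of an Affymetrix mouse array. The probe set with the highest mean over all 6 arrays stands for its gene, so that mean brightness was used in the choice and is no finding. The cells were SVI, a conditionally immortalized mouse podocyte line labelled as kidney glomerulus, differentiated at 38 °C in medium with 10% serum. In the stretched group (3 arrays) the cells underwent cyclic biaxial stretch at 0.5 Hz with up to 5% linear strain for 3 days, and in the unstretched group (3 arrays) they did not. The series speaks of 3 independent batches without saying what a batch was, and a p-value here covers only array-to-array spread, some of which may be technical.

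Podocytes wrap the capillaries of the glomerulus and hold their foot processes with actin filaments, alpha-actinin and myosin. PDZ-LIM proteins bind alpha-actinin or related actin-bound proteins through an amino-terminal PDZ domain and hold kinases and other partners with their LIM zinc-finger domains. Pdlim1 to Pdlim4 have a single LIM domain, whereas Pdlim5, Pdlim7 and Ldb3, the Enigma subfamily, have several. Sorbin-family proteins bind vinculin, Cbl and Abl kinases through SH3 domains and flotillin through the sorbin homology domain, which places them at focal adhesions, stress fibres and muscle Z-discs.

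Values are log2 expression values made by the authors with RMA, and a change is stretched minus unstretched on that scale. Levels of different probe sets cannot be set against each other, since probes differ in how brightly they bind. Across probe sets, pairs of stretched arrays correlated at 0.995 to 0.997, pairs of unstretched arrays at 0.993 to 0.994, and pairs from both groups at 0.987 to 0.990. The 3' minus 5' difference of the beta-actin controls, a sign of RNA quality, was 1.30 ± 0.05 log2 in stretched and 1.57 ± 0.03 log2 in unstretched cells (SD, n = 3 each), and its part in the results below was not tested. In bulk RNA, a change in the share of cells and a change per cell cannot be told apart.

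Stretched cells had more mRNA of 4 of the 9 genes. Sorbs2 was 3.78-fold, Pdlim2 2.30-fold, Pdlim7 1.71-fold and Pdlim1 1.30-fold higher than in unstretched cells, and these 4 passed the threshold (limma, Benjamini-Hochberg adjusted p under 0.05 over all genes). None of the 9 passed as lower, and the other 5, Pdlim3, Pdlim4, Pdlim5, Ldb3 and Sorbs3, did not pass as read by their brightest probe sets. Over all 18193 genes, 7.98% passed as higher and 6.76% as lower, or 1452 and 1229 genes. That balance turned with scaling, to 1149 higher and 1544 lower after renewed quantile normalization and 1192 and 1481 with cyclic loess, and it was 1666 and 1028 with arrays centred on medians. Because the genes were picked with results known, their share of 44.4% describes them and is no evidence of its own. The groups did not overlap for 5 genes that were higher and 1, Pdlim4, that was lower in stretched cells, against 16.0% and 16.6% of all genes. The median change was 0.17 over the 9 genes and -0.02 over all genes.

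**Figure D1:**
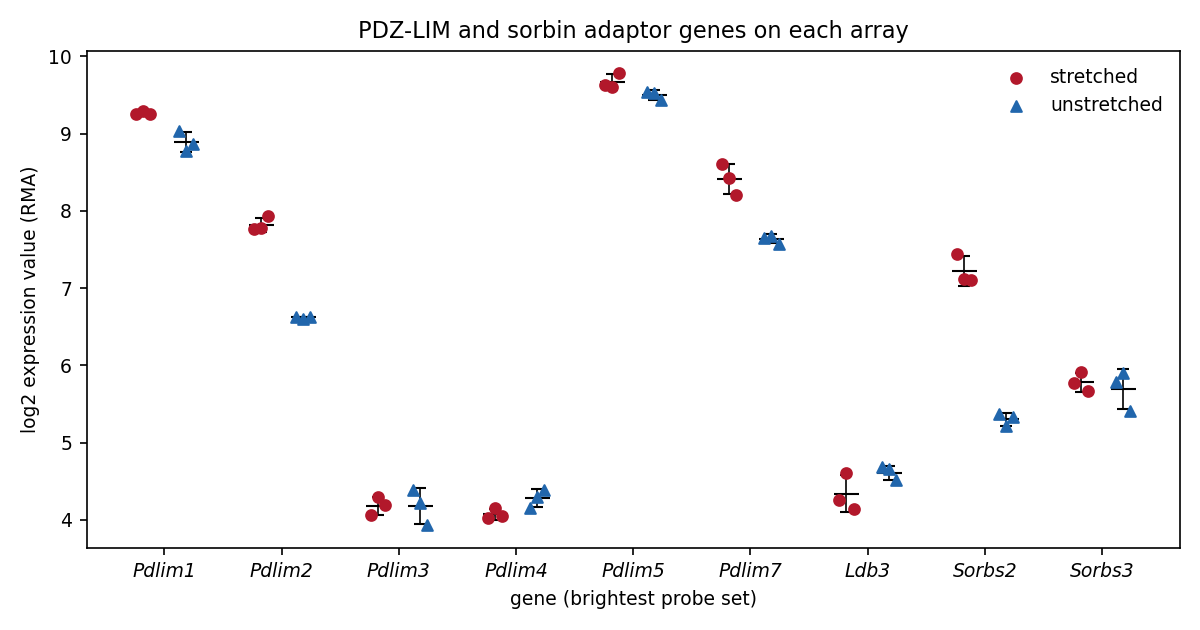
Log2 expression value (RMA, y axis) of the brightest probe set of each gene (x axis) on each of 3 stretched arrays (red circles, left) and 3 unstretched arrays (blue triangles, right), with the mean and SD as black bars. Sorbs2, Pdlim2 and Pdlim7 stand apart between the groups, while Pdlim3 and Sorbs3 overlap; heights of different genes are not comparable.

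Sorbs2, also called ArgBP2, binds Abl kinases, Cbl and vinculin. Its brightest probe set, 1437197_at, read 7.44, 7.12 and 7.10 log2 in stretched cells, against 5.37, 5.22 and 5.33 log2 in unstretched cells. Each stretched array lay above every unstretched array, and stretched replicate 1 was the highest of them. Sorbs2 thus rose by 1.92 on the log2 scale (SE 0.11; 95% interval 1.68 to 2.15; limma adjusted p = 4.90e-06). The means were 7.22 ± 0.19 log2 in stretched and 5.30 ± 0.08 log2 in unstretched cells (SD, n = 3 each).

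The other 3 probe sets of Sorbs2 had low values, with means of 4.21 to 4.74 log2 over all arrays, and smaller changes. Probe set 1441624_at read 4.38, 4.33 and 4.50 log2 in stretched cells, against 4.09, 3.87 and 4.10 log2 in unstretched cells. It rose by 0.39 (SE 0.10, limma adjusted p = 0.0310 over all probe sets), and leaving out any array but unstretched replicate 3 ended the call (adjusted p = 0.0502 to 0.109). The changes of 1446744_at and 1431192_at were 0.21 (adjusted p = 0.385) and 0.13 (adjusted p = 0.398). In 1446744_at the groups overlapped, since stretched replicate 3 lay at 4.57 and unstretched replicate 1 at 4.83 log2.

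The unequal movement of the Sorbs2 probe sets was tested directly, with a limma model (diffSplice) that compares the change of each probe set with the mean change of the others of its gene. The change of 1437197_at was 1.67 log2 above that of the other probe sets (adjusted p = 6.31e-08 over 25762 probe sets). Those of 1431192_at and 1446744_at lay below the others, by differences of -0.71 (adjusted p = 0.00214) and -0.60 (adjusted p = 0.00749). In both comparisons the others include 1437197_at, so these calls are not independent of its rise. The 3 dim probe sets, with changes of 0.13 to 0.39, were not tested against each other without it. The call of 1446744_at was lost without stretched replicate 3 (difference -0.48, adjusted p = 0.0576). That array's absence, or a replicate block, brought 1441624_at past the threshold (adjusted p = 0.0488 and 0.0437), where its difference of -0.37 had not passed (0.0954). Of the 20 probe sets of the 5 genes that have several, 4 passed this test, against 7.10% of all probe sets tested, and 3 of the 4 were in Sorbs2. Low signal narrows fold changes in RMA values, and its part in this difference was not tested. Which exons each probe set reads is not known here.

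RefSeq (GRCm38.p6) lists 3 transcription starts for Sorbs2, and the 120 bases before each are shown because the gene's probe sets moved unequally. Capitals mark E boxes, found before starts 1 and 3 (CANNTG, a motif of basic helix-loop-helix factors that reads alike on both strands). The starts lie after chr8:45507668-45507787, + strand, after chr8:45627631-45627750, + strand and after chr8:45661873-45661992, + strand. The window of start 2 holds its E box further upstream. No probe set could be tied to any of these starts here.
Sorbs2 start 1: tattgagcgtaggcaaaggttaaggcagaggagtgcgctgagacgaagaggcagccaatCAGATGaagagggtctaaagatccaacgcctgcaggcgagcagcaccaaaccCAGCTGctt
Sorbs2 start 2: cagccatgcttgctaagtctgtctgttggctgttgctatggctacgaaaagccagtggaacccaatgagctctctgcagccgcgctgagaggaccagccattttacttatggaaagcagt
Sorbs2 start 3: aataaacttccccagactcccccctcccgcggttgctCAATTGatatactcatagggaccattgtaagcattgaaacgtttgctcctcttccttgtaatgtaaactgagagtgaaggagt

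Sorbs3 encodes vinexin, which binds vinculin at cell adhesions. Its single probe set, 1419329_at, read 5.77, 5.91 and 5.67 log2 in stretched cells, against 5.78, 5.90 and 5.41 log2 in unstretched cells. The groups overlapped, and the change was 0.09 with a 95% interval of -0.19 to 0.37 (limma adjusted p = 0.709).

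Among the PDZ-LIM genes with a single LIM domain, Pdlim2 changed most. Its protein binds alpha-actinin and also takes part in the breakdown of the transcription factors NF-kB p65 and STAT4. The probe set 1423946_at read 7.76, 7.78 and 7.93 log2 in stretched cells, against 6.62, 6.60 and 6.62 log2 in unstretched cells. The groups were far apart relative to their SDs of 0.09 and 0.01. Pdlim2 thus rose by 1.20 on the log2 scale (SE 0.08; 95% interval 1.02 to 1.39; limma adjusted p = 2.00e-05).

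Pdlim1, also called CLP36, links alpha-actinin to stress fibres. Its brightest probe set, 1416554_at, read 9.26, 9.29 and 9.25 log2 in stretched cells, against 9.04, 8.77 and 8.86 log2 in unstretched cells. The 3 stretched arrays lay close together and above all unstretched arrays. Pdlim1 rose by 0.38 (SE 0.09, 95% interval 0.18 to 0.58, limma adjusted p = 0.0187). The call was lost when unstretched replicate 2 was left out (adjusted p = 0.0657), when any stretched replicate was (0.0537 to 0.0665), and with all probe sets of the gene averaged (0.0578). The dimmer probe sets 1437170_x_at and 1437169_at had changes of 0.25 (adjusted p = 0.179) and 0.08 (adjusted p = 0.601), and the groups overlapped in both.

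Pdlim3, also called ALP, is known from muscle Z-discs, and Pdlim4, also called RIL, binds alpha-actinin. Pdlim3 read 4.06, 4.29 and 4.19 log2 in stretched cells, against 4.39, 4.22 and 3.93 log2 in unstretched cells. Its change was 0.00 with a 95% interval of -0.27 to 0.26 (limma adjusted p = 0.997). Pdlim4 read 4.03, 4.15 and 4.05 log2 in stretched cells, against 4.15, 4.29 and 4.39 log2 in unstretched cells. Its groups met at 4.15 log2 without crossing, and its change was -0.20 with a 95% interval of -0.40 to 0.00 (limma adjusted p = 0.177). Signal over background is unknown for these arrays, so whether such low values stand for transcript cannot be told.

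In the Enigma subfamily, Pdlim7 passed with its brightest probe set and Pdlim5 with 4 dimmer ones. Pdlim7, also called Enigma, binds tropomyosin and protein kinase C. Its brightest probe set, 1428319_at, read 8.60, 8.43 and 8.21 log2 in stretched cells, against 7.65, 7.68 and 7.57 log2 in unstretched cells. Every stretched array was above every unstretched array, and the stretched arrays spread more widely. Pdlim7 thus rose by 0.78 on the log2 scale (SE 0.11; 95% interval 0.54 to 1.01; limma adjusted p = 8.39e-04).

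The other Pdlim7 probe sets were tested over all probe sets. Probe set 1417959_at rose by 0.71 (SE 0.13, limma adjusted p = 0.00659), at 6.55, 6.40 and 6.14 log2 in stretched cells, against 5.86, 5.61 and 5.50 log2 in unstretched cells. In both of these probe sets stretched replicate 1 was the highest array and stretched replicate 3 the lowest of the stretched ones. The change of 1443785_x_at was 0.22 (adjusted p = 0.209) and lay below that of the other probe sets (difference -0.52, adjusted p = 0.0340). That difference did not pass when unstretched replicate 1 (adjusted p = 0.0531) or 2 (0.154) or stretched replicate 1 (0.166) or 2 (0.130) was left out, or after renewed quantile normalization (0.0562). The suffix of its name marks probes that may bind other transcripts.

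Pdlim5, also called ENH, anchors protein kinase C and the transcriptional regulator Id2, and was read by 7 probe sets. The brightest, 1427475_a_at, read 9.63, 9.60 and 9.78 log2 in stretched cells, against 9.54, 9.52 and 9.43 log2 in unstretched cells. The groups did not overlap, but the change of 0.17 did not pass (95% interval -0.02 to 0.36, limma adjusted p = 0.240). Of the others, 4 rose in the test over all probe sets, 1422862_at by 0.81 (SE 0.15, adjusted p = 0.00698), 1422861_s_at by 0.80 (SE 0.12, adjusted p = 0.00246), 1450786_x_at by 0.80 (SE 0.13, adjusted p = 0.00460) and 1421413_a_at by 0.56 (SE 0.13, adjusted p = 0.0227). All 4 were dimmer than 1427475_a_at, and the suffixes of 2 of them mark probes shared with, or liable to bind, other transcripts. The annotation gives 1422862_at, 1422861_s_at and 1450786_x_at, and also 1422863_s_at, the same reference transcript. Their changes on the same arrays are therefore not independent readings.

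Probe set 1422862_at, whose name carries no such suffix, read 5.53, 5.67 and 6.10 log2 in stretched cells, against 5.15, 4.90 and 4.83 log2 in unstretched cells. Stretched replicate 3 was the highest of the stretched arrays here and in all 7 probe sets of Pdlim5. The changes of 1422863_s_at and 1429783_at were 0.35 (limma adjusted p = 0.0662) and 0.25 (adjusted p = 0.253). That of 1422863_s_at passed without stretched replicate 1 (0.46, adjusted p = 0.0344), with arrays centred on medians (0.0457) and with a random replicate block (0.0464). The call of 1421413_a_at ended when any of the 3 unstretched replicates was left out (adjusted p = 0.0560 to 0.0594). With all 7 probe sets averaged, Pdlim5 rose by 0.53 (limma adjusted p = 0.00601), so the call for this gene turns on which probe set reads it. No probe set of Pdlim5 passed the test of unequal change, in which 1427475_a_at had a difference of -0.43 (adjusted p = 0.0861). That difference passed after renewed quantile normalization (adjusted p = 0.0355) and with cyclic loess between arrays (0.0476).

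Ldb3, also called ZASP or Cypher, holds Z-discs together in striated muscle. Its brightest probe set, 1416752_at, read 4.26, 4.61 and 4.14 log2 in stretched cells, against 4.68, 4.66 and 4.51 log2 in unstretched cells. The groups overlapped through stretched replicate 2, and the change of -0.27 did not pass (95% interval -0.54 to -0.01, limma adjusted p = 0.166). Without that array the change was -0.41 and passed (adjusted p = 0.0361). The probe sets 1451999_at and 1433783_at had changes of -0.03 (adjusted p = 0.898) and -0.05 (adjusted p = 0.796).

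Counted by probe set, 10 of 24 rose, 0 fell and 14 did not pass (limma, adjusted over 45037 probe sets, of which 6.47% passed as higher and 4.51% as lower). These 10 belong to Pdlim1, Pdlim2, Pdlim5, Pdlim7 and Sorbs2, which have 3, 1, 7, 3 and 4 probe sets. A gene with more probe sets has more chances to pass in this way, and the share of all genes that do so was not computed. Probe sets of the same gene are not independent of each other, so these counts are not counts of separate results. The groups did not overlap in 14 probe sets that were higher and 1 that was lower in stretched cells, against 14.2% and 15.3% of all probe sets. Ldb3, Pdlim3 and Sorbs3 had no probe set without overlap.

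**Figure D2:**
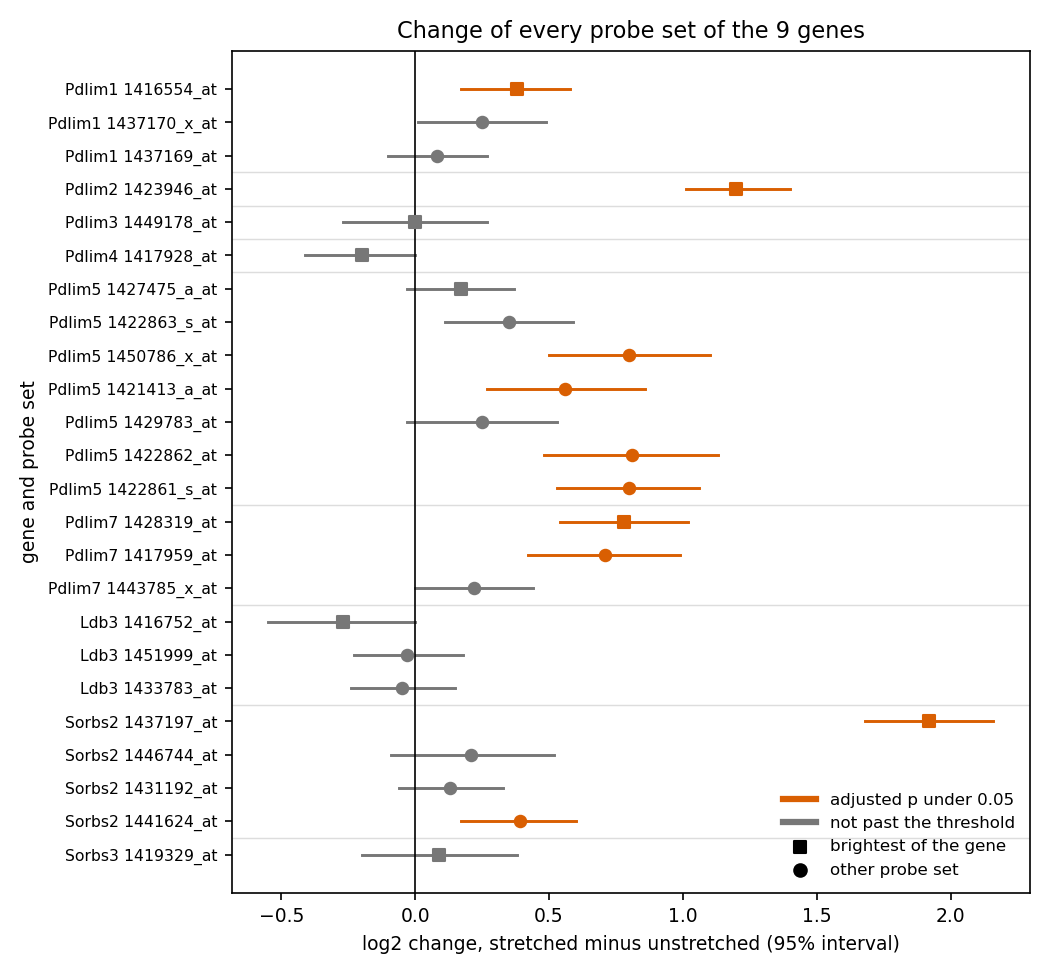
Log2 change, stretched minus unstretched (x axis), of each of the 24 probe sets (y axis, grouped by gene), with 95% intervals. Orange marks probe sets with an adjusted p under 0.05 and grey the others, and squares mark the brightest probe set of each gene. The brightest probe set shows the largest of the 4 changes in Sorbs2 and the smallest of the 7 in Pdlim5.

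**Figure D3:**
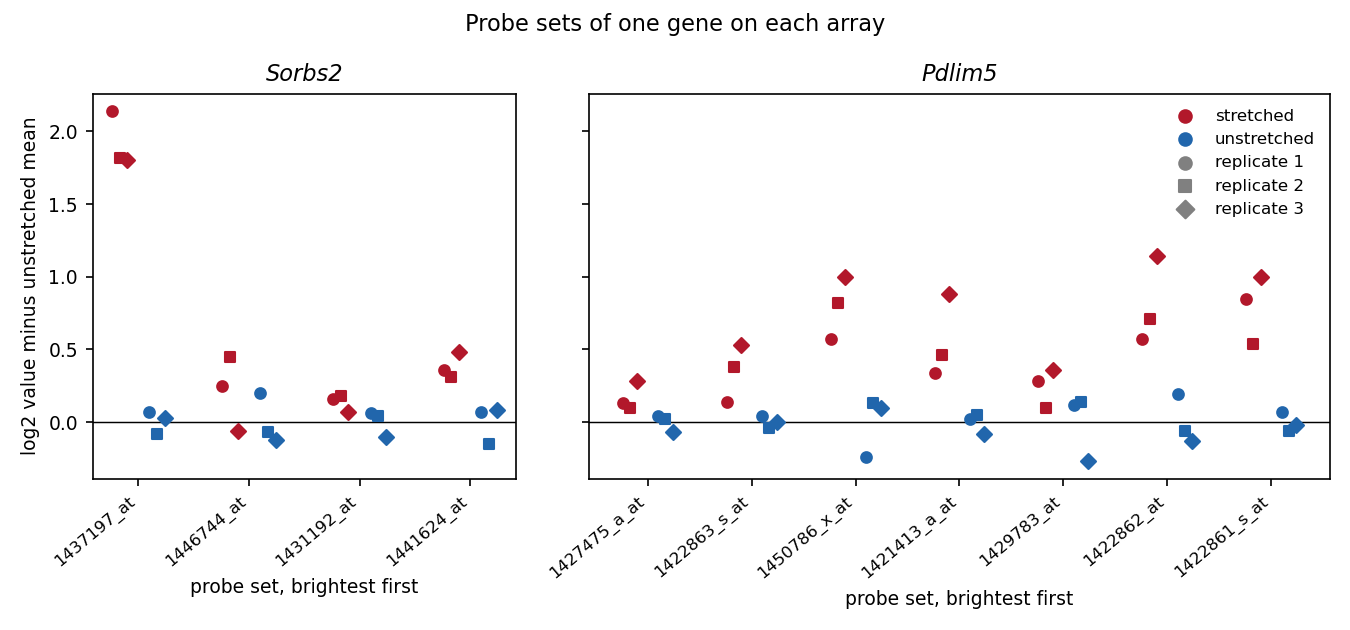
Log2 value minus the unstretched mean of the same probe set (y axis) for the 4 probe sets of Sorbs2 and the 7 of Pdlim5 (x axis, brightest first), on stretched arrays (red, left) and unstretched arrays (blue, right), with a marker shape for each replicate number. In Sorbs2 only 1437197_at moves by more than 1 log2 unit, whereas in Pdlim5 stretched replicate 3 is the highest array in each probe set.

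Some genes of both families lie side by side in the mouse genome. In RefSeq's gene order, which was used for neighbours only, no protein-coding gene lies between Pdlim2 and Sorbs3 on chromosome 14 or between Pdlim3 and Sorbs2 on chromosome 8. Neighbours had unlike values as read by their brightest probe sets. The change was 1.20 for Pdlim2 and 0.09 for Sorbs3, and 0.00 for Pdlim3 and 1.92 for Sorbs2. The interval of Pdlim2 (1.02 to 1.39) does not reach that of Sorbs3 (-0.19 to 0.37), and that of Sorbs2 (1.68 to 2.15) does not reach that of Pdlim3 (-0.27 to 0.26).

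Promoter windows, 250 bases before to 50 after an annotated start, were found in the RefSeq table for 7 of the 9 genes (11 windows), and not for Pdlim2 and Sorbs3. Both strands were searched for 5 motifs of factors linked to actin, adhesion and muscle genes. The CArG box, bound by SRF, was in 2 of the 11 windows, both of Ldb3, and in 1.63% of all 32851 windows. The AP-1 motif TGANTCA was in the same 2 windows and in 7.81% of all. The TEAD motif GGAATG was in the Pdlim3 window and in 14.7% of all, the E box in 5 of 11 and 72.3% of all, and the MEF2 motif in 0 of 11 and 0.557% of all. Both Ldb3 windows overlap and share 1 CArG box and 1 AP-1 match, which do not overlap each other. The windows of Pdlim1, Pdlim7 and Sorbs2 held no CArG box and no TEAD, AP-1 or MEF2 motif, and all 3 Sorbs2 windows held an E box. Pdlim2, which also rose, had no window. Any part of these motifs in the changes was not tested. A match is a description and not a bound site, and the lack of one says only that these letters are not in the window.

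The 120 bases before the upstream Ldb3 start (chr14:34588682-34588801, - strand) are shown with the AP-1 match and the CArG box in capitals, in that order, beside those of Pdlim7 (chr13:55513447-55513566, - strand), a gene that rose and whose window held none of the 5 motifs.
Ldb3 start 1: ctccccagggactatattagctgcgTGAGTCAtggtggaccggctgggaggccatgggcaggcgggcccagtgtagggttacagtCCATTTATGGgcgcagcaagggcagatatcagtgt
Pdlim7: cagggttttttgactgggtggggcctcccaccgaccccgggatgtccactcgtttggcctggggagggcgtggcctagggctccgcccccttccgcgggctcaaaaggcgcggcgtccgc

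Partners of these adaptors were examined from lists that were drawn up with earlier results known. Of 16 measured genes for proteins that bind sorbins, 8 rose, 0 fell and 8 did not pass (limma over all genes, list median 0.21). Over all genes 7.98% passed as higher, and the median change was -0.02. All 16 were at or above the median gene in mean level, so these all-gene figures are not for genes of like level. Vinculin (Vcl), which ties adhesions to actin, was 11.43 ± 0.11 log2 in stretched and 10.99 ± 0.05 log2 in unstretched cells (SD, n = 3 each) and rose by 0.44 (SE 0.09, adjusted p = 0.00833). The ubiquitin ligase gene Cbl rose by 0.71 (SE 0.09), the actin-branching regulator Wasf1 by 1.18 (SE 0.18), the actin-bundling palladin gene Palld by 0.53 (SE 0.10) and the Ras activator Sos1 by 0.77 (SE 0.15). The Palld and Sos1 calls ended with all probe sets averaged (adjusted p = 0.275 and 0.0645), and the second probe set of Sos1 had a change of -0.05.

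Of 21 genes for proteins that bind PDZ-LIM proteins, 4 rose, 1 fell and 16 did not pass (limma, list median 0.19). Over all genes 7.98% passed as higher and 6.76% as lower, and 12 of the 21 were at or above the median gene in mean level. Alpha-actinin 1 (Actn1), the crosslinker of stress fibres, rose by 0.62 (SE 0.08, adjusted p = 7.08e-04). Alpha-actinin 4 (Actn4), the main podocyte form, had a change of 0.19 that did not pass (SE 0.08, adjusted p = 0.168), but did with an intensity trend and a robust prior together (adjusted p = 0.0277). The phosphatase gene Ptpn13 rose by 0.74 (SE 0.08), and Prkce, a protein kinase C, fell by 0.39 (SE 0.10). The Prkce call ended without unstretched replicate 1 or 2 or stretched replicate 2 or 3 (adjusted p = 0.0524 to 0.0850), and with all probe sets averaged (0.127). Palld and Actn3 also rose in this list. Actn3 is counted again with the Z-disc genes below, and its call ended when any 1 of 4 arrays was left out. Palld and Insr stand in both partner lists.

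Other LIM-domain genes of actin and adhesions moved in both directions. Among the 32 with values, 13 rose, 4 fell and 15 missed the threshold (limma, list median 0.26), against 7.98% higher and 6.76% lower over all genes. Of the 32, 25 were at or above the median gene in mean level, so those shares are not for genes of like level. Fblim1, which links filamin to adhesions, rose by 1.23 (SE 0.10), the actin-oxidizing enzyme gene Mical2 by 0.72 (SE 0.08) and Csrp1, an alpha-actinin and zyxin partner, by 0.65 (SE 0.08). The actin-binding Ablim1 fell by 0.77 (SE 0.09), though its second probe set did not pass (adjusted p = 0.193). Of 3 relatives with both a PDZ and a LIM domain, Limk1, Limk2 and Lmo7, only Lmo7 passed, and it fell by 0.67 (SE 0.11, limma adjusted p = 0.00306).

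Of 24 measured muscle Z-disc genes, 4 rose, 0 fell and 20 did not pass (limma, list median 0.03). These 4 are 16.7% of the list, beside 7.98% of all genes that passed as higher and 14.7% that passed in either direction. Of the 24, 6 were at or above the median gene in mean level. This list too was drawn up with earlier results known, so its share is no evidence of its own. Filamin C (Flnc) rose by 0.70 (SE 0.13), the cochaperone gene Bag3 by 0.58 (SE 0.12), Actn3 by 0.44 (SE 0.11) and Fhl1 by 0.33 (SE 0.08). The calls of Actn3 and Fhl1 each ended when any 1 of 4 arrays was left out (adjusted p = 0.0584 to 0.0960 for Actn3 and 0.0539 to 0.0823 for Fhl1), and that of Fhl1 also ended after renewed quantile normalization (0.0695), with cyclic loess (0.0563) and with all probe sets averaged (0.127). The second probe set of Fhl1 had a change of 0.00. The Z-disc list shares 7 genes with the PDZ-LIM partners and 3 with the LIM genes.

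**Figure D4:**
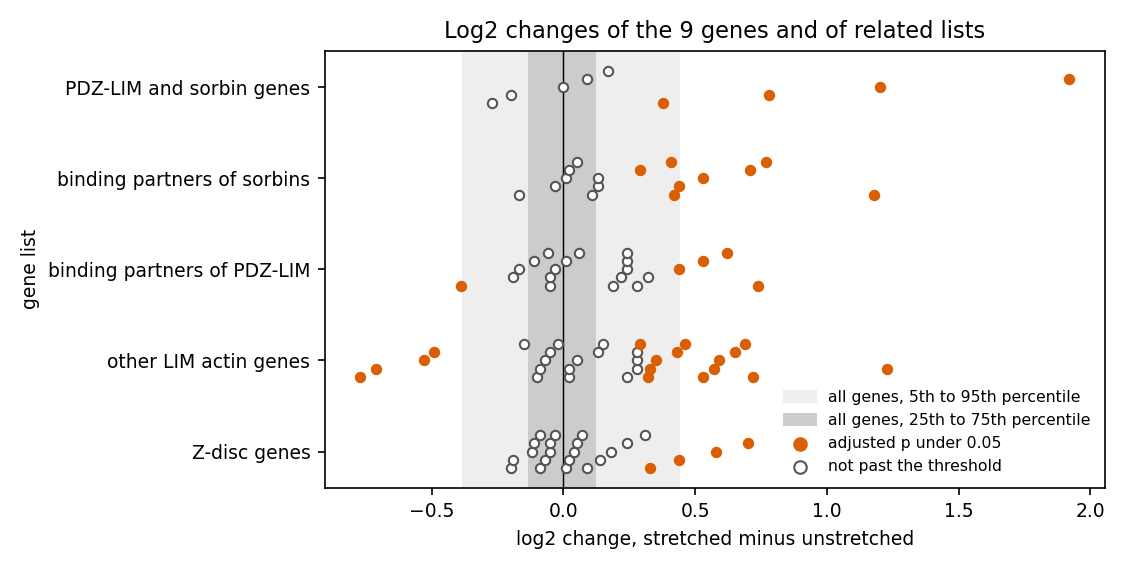
Log2 change, stretched minus unstretched (x axis), of the 9 PDZ-LIM and sorbin genes and of the genes in 4 related lists (y axis, each point a gene, spread vertically for legibility). Orange points have an adjusted p under 0.05 and open points do not, and grey bands span the 25th to 75th and the 5th to 95th percentile of all genes (-0.13 to 0.12 and -0.38 to 0.44). Sorbs2 and Pdlim2 lie far to the right of both bands, while Ldb3 and Pdlim4 lie within the wider band.

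The genes whose array profiles were nearest to each of the 4 called members were found by the root mean square distance of log2 values, each centred on its gene's mean, over 6 arrays. For Sorbs2 these were Filip1l (0.0874), Crem (0.143) and Mcam (0.164). For Pdlim2 they were fibronectin (Fn1, 0.0581), N-cadherin (Cdh2, 0.0596) and Dysf (0.0764). For Pdlim7 they were Fhl2 (0.0578), Zfp354a (0.0699) and Dtwd1 (0.0710), and for Pdlim1 they were Sumo3 (0.0341), Pkm (0.0362) and Rexo2 (0.0392). These members were called for their group difference, so the distance mostly picks genes with a change of like size. Beside 1.20 for Pdlim2, the change was 1.22 for Fn1, 1.21 for Cdh2 and 1.19 for Dysf. Shared regulation was not tested.

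Markers of the labelled cells were read beside the adaptors. Array values of different genes do not show which markers the cells express, so the label was neither borne out nor contradicted by level. Of 10 measured podocyte markers, 1 rose, 1 fell and 8 did not pass with stretch, where 7.98% of all genes passed as higher and 6.76% as lower. Over all arrays Cd2ap averaged 10.40, Podxl 7.84, Wt1 6.72, the nephrin gene Nphs1 4.96 and Ptpro 4.27 log2. Nes rose by 0.57 (SE 0.09, limma adjusted p = 0.00182) and Synpo fell by 0.45 (SE 0.08, adjusted p = 0.00412), and both calls ended with all probe sets averaged (adjusted p = 0.131 and 0.0837). Of 9 smooth muscle markers, 2 rose, 1 fell and 6 did not pass, with a list median of 0.06. Cnn1 rose by 0.85 (SE 0.09), Tagln rose by 0.73 (SE 0.08) and Myocd fell by 0.34 (SE 0.09), and the list's mean level was 7.72 to 7.76 log2 on stretched and 7.53 to 7.60 log2 on unstretched arrays. The Myocd call ended without unstretched replicate 2 or any stretched replicate (adjusted p = 0.0610 to 0.110), and its second probe set had a change of 0.11. The change of Myh11, a defining smooth muscle gene, did not pass (-0.01, adjusted p = 0.961). Of 15 striated muscle markers 0 passed (limma), with list means of 4.41 to 4.54 log2 on stretched and 4.36 to 4.40 log2 on unstretched arrays. The part of smooth muscle genes in the changes of the adaptors was not tested.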

How the data were processed

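RNA of 3 stretched and 3 unstretched SVI podocyte samples was measured on Affymetrix mouse arrays. The authors deposited 1 log2 value for each probe set and array, computed with RMA per the submitters' processing notes. The RMA version is not given in the sources used here. By default RMA corrects background and quantile normalizes, which hides a global shift of RNA. Of 45101 probe sets, 64 controls were left out. GEO's platform annotation gave 34945 of the rest 1 gene symbol, and 34741 of these matched a RefSeq gene ID. The brightest probe set stood for each of 18193 genes. No filter on dim values was applied.

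The contrast of stretched against unstretched cells came from limma 3.58.1 (lmFit, eBayes; R 4.3.3) without covariates, over all genes and, separately, over 45037 probe sets. limma's diffSplice compared probe sets of a gene. Calls use a Benjamini-Hochberg adjusted p under 0.05, and intervals are 95%. A two-sided exact permutation test of 3 against 3 cannot go below p = 0.1, so none is given. The steps were tested on simulated data. The members, the lists (partners of both families, other LIM and Z-disc genes, relatives, and markers of 7 cell types) and the tests were chosen with earlier results of these data known. The text names all 9 members, up to 4 called genes per list in order of the moderated t, Actn1, Actn4 and Vcl, neighbouring members, and the 3 nearest profiles of each called member. The podocyte and muscle levels printed without a call, and Limk1, Limk2 and Insr, were picked after their values were seen. The motif search was a description without a test.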

Additional observations from a re-analysis of the deposited data

How the results depend on the processing

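The rises of Pdlim2, Pdlim7 and Sorbs2 kept their direction under every alternative run, with changes of 1.14 to 1.24, 0.57 to 0.88 and 0.21 to 1.98. The Pdlim2 call held in all 16 alternatives. Pdlim2 has 1 probe set, so averaging its probe sets or taking the second brightest used the same values and could not end the call. That of Sorbs2 ended only with its second brightest probe set (0.21, adjusted p = 0.378), and that of Pdlim7 only with a minimum change of 0.5 log2 unit (adjusted p = 0.642). Of the 9 genes, 3 to 4 were called higher and 0 to 1 lower when single arrays were left out, 2 were called higher with a minimum change of 0.5 or the second brightest probe sets, and 1, Ldb3, was called lower without stretched replicate 2. Of the 24 probe sets, 7 to 9 were called higher when single arrays were left out. Unequal change was called for 3 to 4 probe sets when single arrays were left out and for 1 without dim probe sets, since only 1 probe set of Sorbs2 was then left. Over all genes the calls numbered 1661 without stretched replicate 1, 1750 without stretched replicate 3, up to 2639 without another array, and 142 with a minimum change of 0.5. With all probe sets averaged, 0 genes of the PDZ-LIM partners were called lower.

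The numbers of the replicates pair the samples by name only. Deviations of same-numbered samples from their group means correlated at 0.02, 0.15 and 0.28, and not every sample correlated best with its own number. With a replicate block 3102 genes were called, 4 members rose and 0 fell, 10 member probe sets rose, and 5 changed unequally.

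Of 26 values that changed sign, 5 belonged to called genes and the others to changes near 0 that were not called. The 26 hold the sign changes of Pdlim3 and Sorbs3 both for the gene and again for its only probe set, with the same values. Pdlim3 had changes of 0.04 after renewed quantile normalization, 0.03 with arrays centred on medians, 0.04 with cyclic loess and -0.12 to 0.10 without single arrays. Sorbs3 ran from -0.05 to 0.19 without single arrays. The Ldb3 probe set 1451999_at had 0.01, 0.00 and 0.01 under the 3 scalings and -0.07 to 0.04 without single arrays, and 1433783_at had 0.01 after renewed quantile normalization and with cyclic loess. The 5 called genes turned with the second brightest probe set, where the change was -0.05 for Sos1, 0.01 for Synpo, 0.11 for Myocd, -0.15 for Pdgfrb and -0.09 for Sumo3. The cause was not tested. The alternatives for single probe sets and for genes outside the 9 were chosen after seeing the data.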

Other observations

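Among markers of mesangial, tubule, endothelial and blood cells, Pdgfrb and Cubn rose and Cd68 fell. Over all genes 7.98% passed as higher, 6.76% as lower and 14.7% in either direction. Cubn averaged 4.84 and Cd68 5.08 log2 over all arrays, below the median gene at 5.74 log2. Of 4 measured mesangial markers, Pdgfrb, a growth factor receptor, rose by 0.41 (SE 0.09, limma adjusted p = 0.0101), a call that ended with all probe sets averaged (adjusted p = 0.280). Of 7 tubule markers, Cubn, a receptor of proximal tubule uptake, rose by 0.49 (SE 0.12, limma adjusted p = 0.0173), at 5.08 log2 in stretched and 4.59 log2 in unstretched cells. Of 5 leukocyte markers, the lysosomal membrane protein gene Cd68 fell by 0.89 (SE 0.12, limma adjusted p = 7.27e-04), at 4.63 log2 in stretched and 5.53 log2 in unstretched cells. Of 6 endothelial markers 0 passed in limma. The Cubn call ended without unstretched replicate 2 or stretched replicate 1 or 2 (adjusted p = 0.0562 to 0.0776).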
